A study of Mus musculus with 3 samples.

Results

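Pdzd11 and Kif4 are neighbouring mouse genes on the X chromosome whose annotated first exons overlap on opposite strands, and they are 2 of the 21951 coding genes of GENCODE M21. Their members are the reads whose first 20 nt match an exon of either gene, on either strand, in any of the 3 libraries, with inserts of 18 or 19 nt matched whole, and there were 645 such reads, 5 of them under 20 nt, each with a single place among annotated transcripts. Small RNAs came from bulk RNA of fully grown mouse oocytes, cut from gels as 19-24 nt, 19-30 nt and 24-30 nt windows with 1 library each. Every donor mouse had been given PMSG (5 IU), which stimulates ovarian follicles, 48 hours before it was killed, and strain and age are not given in the sources used here. With 1 library per window no difference has a replicate check, and intervals are 95% intervals of counting error alone.

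Pdzd11 encodes a small PDZ domain protein known to bind the tails of plasma membrane calcium pumps. Kif4 encodes a chromosome-associated kinesin that acts in chromosome condensation and at the spindle midzone. Mouse oocytes are known for endogenous siRNAs: double-stranded RNA, formed for example where transcripts of both strands of a locus pair, is cut by Dicer into short duplexes, and one strand of each is loaded into an Argonaute protein. Oocyte piRNAs are longer, do not need Dicer and often come from transposons.

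The libraries held 681178 usable inserts (19-24 nt), 747918 (19-30 nt) and 1424150 (24-30 nt), of which 315697, 200295 and 344634 matched a GENCODE M21 transcript over their first 20 nt. Levels are reads per 1000000 matched reads (RPM), and 3 reads, the floor set for a count of 0, correspond to 9.50, 14.98 and 8.70 RPM in the same order. Reads were 26 nt long in the 19-24 and 24-30 nt libraries and 36 nt in the 19-30 nt library, whose read names carry another machine name, so that window and run cannot be told apart. In bulk RNA fewer cells with these small RNAs and less of them per cell cannot be told apart either.

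Small RNAs of both strands lay in the shared first exon. Kif4 runs along the plus strand (X:100625737-100727214, GRCm38) and Pdzd11 along the minus strand (X:100622883-100626568), so a plus read is sense to Kif4 and antisense to Pdzd11, and a minus read the reverse. Their exons overlap head to head over 832 nt (X:100625737-100626568), in the first exon of Kif4-201. This exon is 5' UTR up to base 100626468 and coding from 100626469 on. Exons of coding transcripts of both genes overlap over 753 nt of it (X:100625816-100626568), which are 5' UTR in Pdzd11. The bases before 100625816 are exon of Pdzd11 only in transcripts not annotated as coding. The most frequent sequences of each strand are shown because they place the small RNAs on both partners. The first base, often uridine in small RNAs bound by Argonaute proteins, is in capitals, T stands for U, and the number counts reads over all libraries.

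Plus strand, chrX:100626159-100626178, 11 reads: Tgagttacccgggcaccgcg

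Plus strand, chrX:100626179-100626198, 10 reads: Ttagctccgattctgcgctt

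Plus strand, chrX:100626253-100626272, 10 reads: Ttgctgacgccgcttcgccc

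Plus strand, chrX:100626310-100626329, 10 reads: Aagagtgacaggacaccgtg

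Minus strand, chrX:100626450-100626469, 15 reads: Tggtaccagctcagcaggtg

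Minus strand, chrX:100626186-100626205, 9 reads: Tgctccaaagcgcagaatcg

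Minus strand, chrX:100626451-100626470, 7 reads: Atggtaccagctcagcaggt

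Minus strand, chrX:100626458-100626477, 7 reads: Ttctttcatggtaccagctc

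The most frequent of them, with 6, 9 and 0 reads in the 19-24, 19-30 and 24-30 nt libraries, starts opposite the first coding base of Kif4 and runs back into its 5' UTR. The third minus sequence starts 1 base further into the coding part. No single sequence dominated: the leading one held 2.65% of plus reads and 6.85% of minus reads, and 88 of the 176 plus sequences and 53 of the 102 minus sequences were read once. No plus read was found at the 5' to 5' overlaps of 19, 20 or 21 nt with the most frequent minus sequence.

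The plus strand had 94, 323 and 5 reads in the 19-24, 19-30 and 24-30 nt libraries. These are levels of 298 RPM (Poisson interval 241 to 364), 1613 RPM (1442 to 1798) and 14.5 RPM (4.71 to 33.9). The minus strand had 56, 167 and 0 reads, or 177 RPM (134 to 230), 834 RPM (712 to 970) and 0 RPM (0 to 10.7). Both strands were thus highest in the 19-30 nt library and at 5 and 0 reads in the 24-30 nt library.

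**Figure D1:**
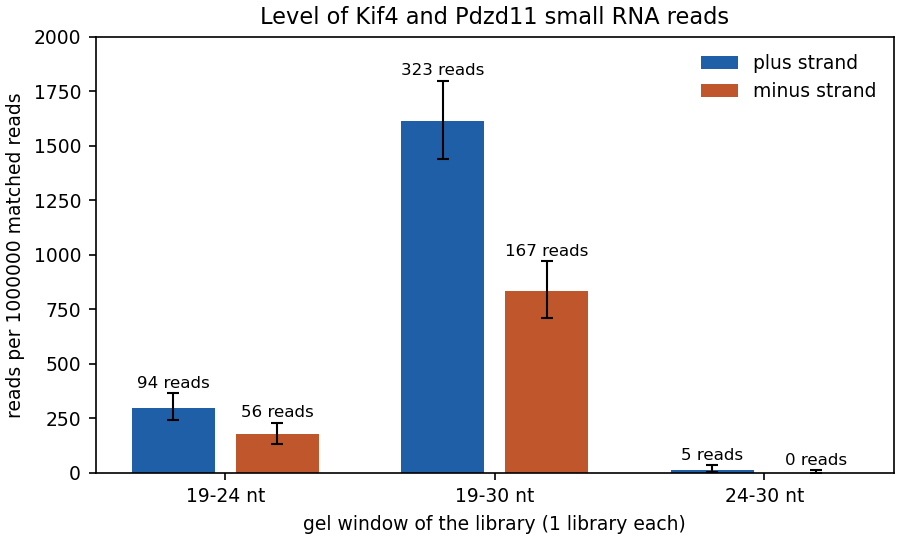
Level of reads matching Kif4 or Pdzd11 exons in reads per 1000000 matched reads (y axis) by gel window (x axis) and strand, with exact Poisson intervals of 1 library as error bars. The plus strand lies above the minus strand in each window, with 94 and 56, 323 and 167, and 5 and 0 reads.

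Summed over strands, the pair was 32.7-fold higher in the 19-24 nt library (conditional binomial interval 13.7 to 102) and 169-fold higher in the 19-30 nt library (71.8 to 522) than in the 24-30 nt library. The value for the 19-24 nt library was 62.7 per usable read and 141 per matched read outside microRNA. That for the 19-30 nt library was 262 with uniquely matching reads alone and 40.5 with each distinct sequence counted once. Of the 5 reads of the 24-30 nt library, a linker was recognised in 2, at 22 and 20 nt, shorter than the window. The read cut at 20 nt fitted the exon without a linker equally well, with 1 difference either way, so its length is not settled. Counted as antisense reads, Pdzd11 was 32.7-fold (10.9 to 162) and 184-fold (62.4 to 897) above its 3 reads in the 24-30 nt library. Kif4 had 56, 167 and 0 antisense reads, and the conditional binomial intervals of its ratios over the 24-30 nt library, which have no upper limit, start at 16.03-fold and 77.04-fold. Among coding genes with at least 10 antisense reads, 8.47% of 614 were at least 4-fold higher in the 19-24 nt library than in the 24-30 nt one, and 27.4% of 787 were so for the 19-30 nt library. The median ratios of these genes, with counts under 3 in the 24-30 nt library raised to 3, were 0.185 and 1.12.

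The 19-24 nt library lay below the 19-30 nt library for the pair, with 150 and 490 reads and a ratio of 0.194 (0.161 to 0.234). MicroRNA took most matched reads of the 19-24 nt library, where 67775 matched reads lay outside microRNA hairpins, against 163603 in the 19-30 nt library. Per matched read outside microRNA the ratio was 0.739 (0.611 to 0.889).

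The question along the exon is where the small RNAs start and stop. In all, 639 of the 645 reads (99.1%, Wilson interval 98.0 to 99.6) had their 5' end in the overlap, all of them between X:100625997 and X:100626561, a stretch of 565 nt. The first 260 nt of the overlap, from the annotated start of Kif4-201, held no 5' end. RefSeq places the start of Kif4 at 100626065 and that of Pdzd11 at 100625941, so that these start sites face away from each other and leave no overlap. Relative to them, 606 of the 639 reads started at or beyond the Kif4 start, and all 639 lay upstream of the Pdzd11 start. Among the GENCODE transcripts of Pdzd11 it is exon throughout in Pdzd11-201 and in part in Pdzd11-204.

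**Figure D2:**
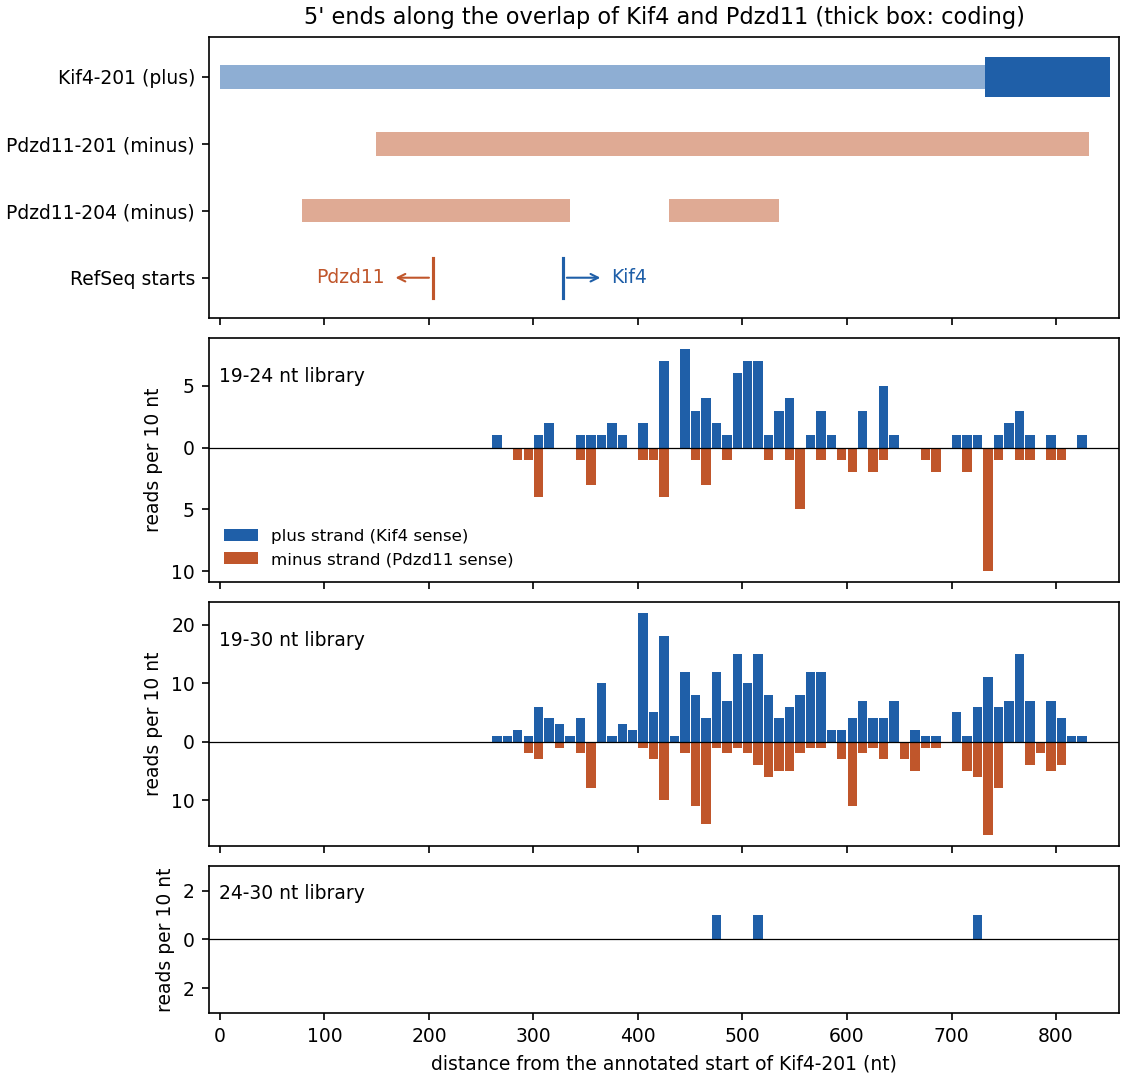
The 5' ends of reads per 10 nt (y axis; plus strand up, minus strand down) against the distance from the annotated start of Kif4-201 (x axis), in the 3 libraries, under the annotated exons and the RefSeq start sites. No read started in the first 260 nt. In the 19-24 and 19-30 nt libraries 5' ends of both strands are spread along the 565 nt that follow. At 651 to 700 nt the 19-24 nt library has no plus 5' end.

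Within the stretch the reads did not stop at annotated borders. The part of Kif4 ahead of its RefSeq start held 33 reads over 68 nt, or 48.5 reads per 100 nt. The 5' UTR from that start on held 485 reads over 404 nt (120 per 100 nt), and the coding part of the overlap 121 reads over 100 nt (121 per 100 nt). Pdzd11-204 splices out 95 nt (X:100626072-100626166), and these bases held 115 reads, 81 plus and 34 minus (121 per 100 nt). The mean density was thus nearly the same in 5' UTR, coding part and this intron, and lower ahead of the RefSeq start of Kif4. These means cover uneven windows of 50 nt, counted from the annotated start of Kif4. Past the RefSeq start, the window at 401 to 450 nt held 75 plus and 22 minus reads. That at 351 to 400 nt held 21 and 11, and that at 651 to 700 nt held 4 and 13. The windows were picked after seeing their values. Whether density steps up at the RefSeq start was not tested.

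Plus reads outnumbered minus reads. In the overlap the plus strand gave 91 of 146 reads of the 19-24 nt library (62.3%, 54.2 to 69.8), 323 of 490 of the 19-30 nt library (65.9%, 61.6 to 70.0) and all 3 reads of the 24-30 nt library. Over all libraries the share was 65.3% (61.5 to 68.8). Distinct 5' ends showed the same side, with 177 on the plus and 104 on the minus strand.

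The balance varied along the exon. In windows of 50 nt counted from the annotated start of Kif4-201, the plus share was 77.3% (68.0 to 84.5) at 401 to 450 nt and 75.4% (62.9 to 84.8) at 751 to 800 nt. It was 23.5% (9.56 to 47.3) at 651 to 700 nt and 41.5% (31.4 to 52.3) at 701 to 750 nt, the window with the start codon of Kif4. These windows were picked after their values were seen. At 701 to 750 nt the 19-24 nt library had 4 plus and 13 minus reads and the 19-30 nt library 29 and 35, so that the minus strand led in both. At 651 to 700 nt there were 0 plus and 3 minus reads in the first of these libraries and 4 and 10 in the other. The plus strand led in each of the other windows with reads when libraries were summed, and in the 19-30 nt library alone. In the 19-24 nt library alone the minus strand led in some of them. These were 251 to 300 nt (1 plus and 2 minus reads), 301 to 350 nt (4 and 5) and 551 to 600 nt (5 and 7). In the rest of that library the plus strand led or equalled the minus strand.

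Some 5' ends were found in more than 1 library. Of 67 plus ends in the 19-24 nt library, 42 were also among the 150 of the 19-30 nt library, which is 62.7% and 28% of each list. Of 39 minus ends, 23 were among 88, which is 59.0% and 26.1%. The 19-30 nt library itself used 150 of the 565 plus positions of the stretch and 88 of the 565 minus positions. How many ends libraries would share by position and base use alone was not tested. Of the 3 plus ends of the 24-30 nt library, 1 was found in another library.

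Lengths peaked at 22 nt on both strands of the 19-30 nt library, within the range known for products of Dicer. In that library, where the linker sized 363 member reads, 314 (86.5%, 82.6 to 89.6) were 20 to 23 nt long. The other uniquely matching antisense reads of coding genes in that library gave 82.2% (81.3 to 83.0), and the intervals overlap. Among reads of at least 20 nt the mode was 22 nt on the plus strand, with 100 of 227 reads (44.1%, 37.7 to 50.6), and on the minus strand, with 49 of 132 (37.1%, 29.4 to 45.6). The length of 21 nt followed with 58 plus and 41 minus reads. Inserts of 24 nt or longer made up 32 of 227 plus and 13 of 132 minus reads.

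In 127 of the 490 reads of the 19-30 nt library no linker was found, which for a 36 nt read would mean an insert over 30 nt. Their bases were therefore set against the exon and the linker together, and the length taken at which the read leaves the exon. By this measure 1 of the 127 ran on along the exon, and 111 (87.4%) left it at 20 to 23 nt, 69 of them at 22 nt. For the 359 reads of at least 20 nt sized by their linker, the lengths by both measures were the same in all 359. Both measures use the same linker, which was found in these reads, so this does not test the sizing of the 127. In simulated 36 nt reads of the locus, with assumed error rates, sizing on the exon was exact for 99.9% of the reads it sized. The reads without a found linker are counted here among the member reads. With them, 485 reads could be sized, of which 425 (87.6%, 84.4 to 90.3) were 20 to 23 nt long, 277 of 320 on the plus strand (86.6%) and 148 of 165 on the minus strand (89.7%).

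**Figure D3:**
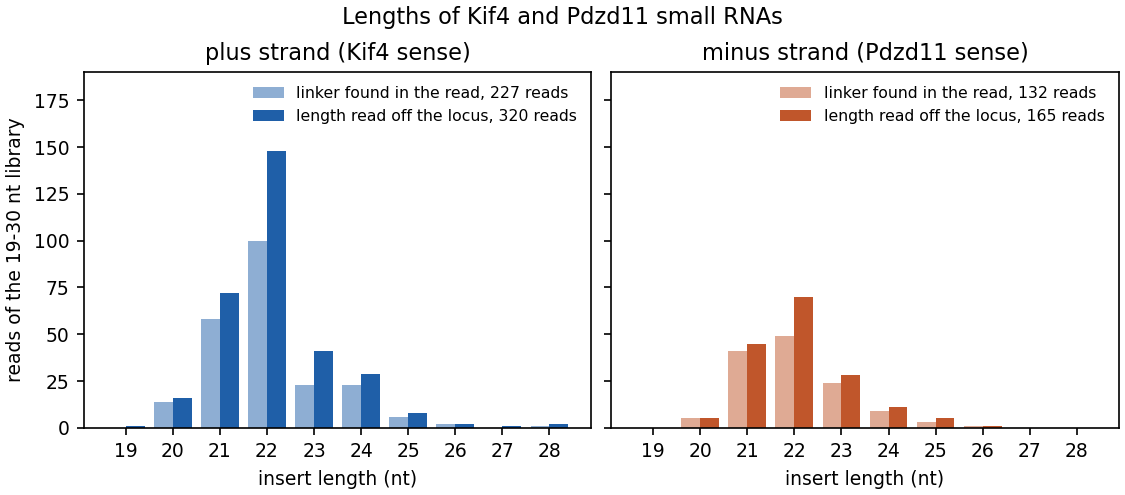
Reads of the 19-30 nt library (y axis) by insert length in nt (x axis) for the plus and the minus strand, sized by the linker found in the read (light) or by where the read leaves the exon (dark). Both measures peak at 22 nt on each strand, with 100 and 148 plus reads and 49 and 70 minus reads.

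The 26 nt reads of the 19-24 nt library leave little linker to find. There 68 of 150 reads were not sized by the linker, and 43 of them could be sized on the exon, 38 at 20 to 23 nt. All in all 110 of 115 reads sized on the exon were 20 to 23 nt long (95.7%, 90.2 to 98.1), with a mode of 22 nt on the plus strand and 21 nt on the minus strand. The minus mode rests on 41 reads. In a 26 nt read an insert over 24 nt cannot gain the 2 differences this sizing needs, so longer inserts could not be counted. The share therefore says nothing of longer inserts.

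Uridine was the most frequent first base. In the overlap 48 of 91 plus reads of the 19-24 nt library (52.7%, 42.6 to 62.7) and 165 of 321 of the 19-30 nt library (51.4%, 46.0 to 56.8) started with U. On the minus strand 23 of 54 (42.6%, 30.3 to 55.8) and 67 of 165 (40.6%, 33.4 to 48.2) did. Adenosine followed, with 28.3% of plus and 35.8% of minus reads of the 19-30 nt library. Guanosine started 9.66% of plus and 4.85% of minus reads there, although it made up 33.8% and 29.1% of bases 2 to 20 of the same reads. At those bases U made up 23.9% and 16.6%, and at no single one of them more than 33.3% and 26.7%. Over both strands U started 47.8% of the 490 member reads of the 19-30 nt library (43.4 to 52.2), against 53.6% (52.8 to 54.5) of the other uniquely matching antisense reads of coding genes. With 1 library this difference was not tested.

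The exon itself is rich in G and C, at 59.8% of the 565 nt, and each strand offers few uridines. Of the 128 uridines of the plus strand, 76 were used as a 5' end (59.4%, 50.7 to 67.5), against 25 of 185 guanosines (13.5%, 9.32 to 19.2). Adenosine came between them with 43 of 99 (43.4%), and cytidine with 33 of 153 (21.6%). On the minus strand 31 of 99 uridines (31.3%, 23.02 to 41.001), 38 of 128 adenosines (29.7%, 22.5 to 38.1), 27 of 185 cytidines (14.6%) and 8 of 153 guanosines (5.23%, 2.67 to 9.98) were used. The intervals of uridine and adenosine overlap on both strands, and that of guanosine lies below both. Per position, a plus uridine had 1.69 reads and a plus guanosine 0.238.

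**Figure D4:**
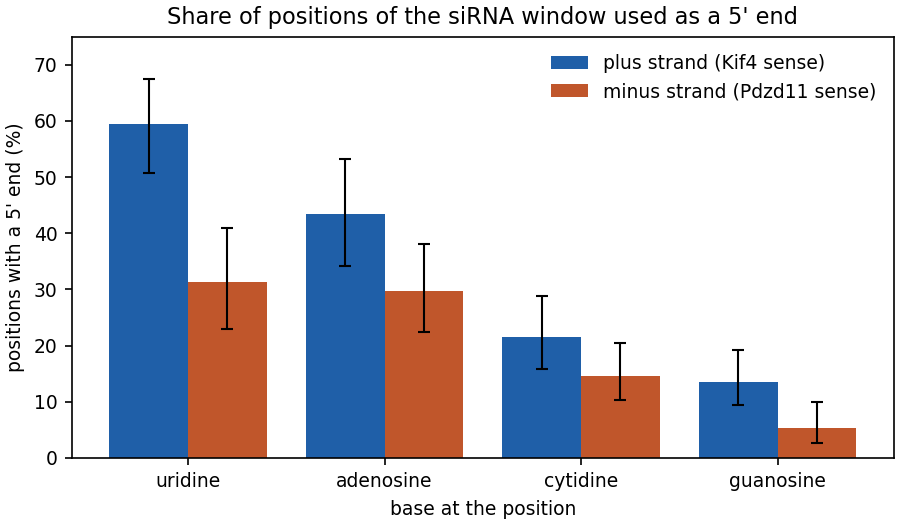
Share of positions of the 565 nt stretch at which at least 1 read starts (y axis, percent) by the base at that position (x axis) and strand, with 95% Wilson intervals, all libraries together. Uridine and adenosine positions are used most on both strands, guanosine least, with 13.5% of plus and 5.23% of minus positions.

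Opposite-strand overlaps were examined for the distances left by known cuts: a Dicer duplex of 21 to 23 nt with 2 nt 3' overhangs pairs 5' ends at 19 to 21 nt, and piRNA ping-pong at 10 nt. Between distinct 5' ends of the 2 strands there were 30, 37 and 37 pairs at 19, 20 and 21 nt and 32 at 10 nt. Over the other overlaps of 1 to 30 nt the number ranged between 24 and 46, with a median of 37. With each pair weighted by its reads the counts were 149, 153 and 157 at 19 to 21 nt and 88 at 10 nt, the lowest of the overlaps of 1 to 30 nt. Neither distance thus stood above its neighbours. Sized molecules numbered 262 distinct on the plus and 144 on the minus strand. Among them 25 pairs had 2 nt 3' overhangs at both ends, the most of any shift from -6 to 6 nt. The margin was small, with 15 to 24 pairs at the other shifts.

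Phasing, the regular spacing left when Dicer moves along a duplex from a fixed end, was read from distances between 5' ends on 1 strand. On the plus strand 59 pairs lay 21 nt and 70 lay 22 nt apart, where distances of 5 to 50 nt gave 53 to 70 pairs (median 62). On the minus strand there were 20 and 13 pairs, in a range of 11 to 28 (median 19). In a register of 21 nt the leading phase held 9.35% of plus reads (6.92 to 12.5) and 10.8% of minus reads (7.37 to 15.6); being the highest of all phases, it lies above an even share by construction. The leading phases of 20, 22 and 23 nt registers held 10.3%, 7.91% and 10.6% of plus reads and 12.2%, 13.5% and 8.11% of minus reads, so the 21 nt register did not lead on either strand. A plus molecule was followed directly, with no gap, by a 5' end of the same strand in 111 of 262 cases, the highest of the gaps from -5 to 10 nt (76 to 104 at the others). On the minus strand this was so for 19 of 144, in a range of 15 to 27.

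**Figure D5:**
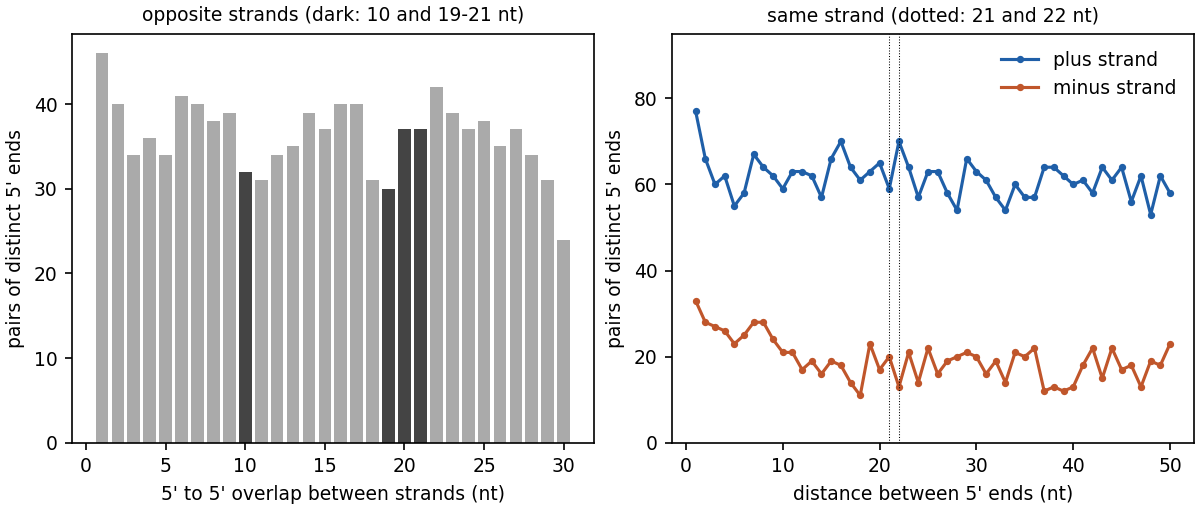
Pairs of distinct 5' ends, all libraries together (y axes), by 5' to 5' overlap between the strands (left, nt) and by distance on the same strand (right, nt). The bars at 10 nt (32 pairs) and at 19 to 21 nt (30, 37 and 37) lie within the range of the others, and the lines show no peak that repeats every 21 or 22 nt.

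Outside the overlap the pair was nearly bare. The overlap held 768 reads per kb. Pdzd11 has 1295 nt of further exon, with its whole coding region, and held 0 reads there, where the floor of 3 reads would be 2.32 per kb. Kif4 has 4682 nt of further exon and held 6 reads, or 1.28 per kb. Of these 6, 3 started in the last bases of the first exon just past the overlap, at 100626570, 100626573 and 100626579, all in the 19-24 nt library. The reads at 100626570 and 100626579 were sense to Kif4 and ran across the junction into its next exon, and that at 100626573 was antisense. The last 3 were sense to later exons of Kif4, 2 at 100633850 and 100633861 in the 24-30 nt library and 1 at 100704078 in the 19-24 nt library. The 19-30 nt library, with 490 reads in the overlap, had none outside it. Introns and sequence beyond the annotated ends were not analysed here.

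Other genes set beside the pair are known oocyte siRNA sources, a list chosen with earlier results of these data known. Levels per kb of exon in the 19-30 nt library were 1145 RPM for Pdzd11 and 444 RPM for Kif4. Optn, an autophagy receptor gene, had 962 RPM per kb. Ppp4r1, a regulatory subunit of protein phosphatase 4, had 358, Rangap1, the GTPase activating protein of Ran, 219, and Dynll1, a dynein light chain, 151. Hdac1, a histone deacetylase, had 49.5 and Cdk1, the mitotic kinase, had no read in any library.

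The antisense share of Pdzd11 in that library was 65.8% (61.5 to 69.9) and that of Kif4 34.1% (30.0 to 38.4). Optn had 36.5% (33.0 to 40.03), Rangap1 90.2% (85.4 to 93.5), Ppp4r1 10.8% (8.07 to 14.2) and Dynll1 14.0% (8.60 to 21.1). Their reads were unique to a different extent: 100% for Pdzd11 and Kif4 and 99.9% for Optn, against 85.8% for Ppp4r1, 75.03% for Dynll1 and 31.9% for Rangap1, whose siRNAs are known to involve pseudogene copies. Of 10 mRNAs abundant in oocytes, Nlrp5 had 34.6 weighted reads in the 19-30 nt library, 0.300% of them antisense. Zp1, Zp2, Zp3, Bmp15, Npm2 and Dppa3 had 0 reads there, and Gdf9, Oosp1 and Ooep had 3, 1 and 3.42. All 10 had reads in the 24-30 nt library, the highest count being 8 for Gdf9.

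Among the 87 coding genes with at least 50 uniquely matching reads in the 19-30 nt library, Kif4 and Pdzd11 ranked 8 and 9 by reads. All 488 reads of Pdzd11 are among the 490 of Kif4, so that the ranks, the levels per kb and the mirrored antisense shares describe 1 locus. The median gene of these had 18.2% antisense reads, 88.9% of reads at 20 to 23 nt and 49.6% starting with U, where Pdzd11 had 65.8%, 86.5% and 48.0%. In 35 of the 87 genes (40.2%), Pdzd11 and Kif4 among them, neither strand held under 20% of the reads. By the summed difference in these 3 shares of 1 library, the genes most like Pdzd11 were Cwc22 (9.22 percentage points), Rbm15 (11.6), Zcchc3 (11.8), Ppib (12.3) and Srsf4 (12.6). Cwc22 encodes a splicing factor, Ppib cyclophilin B and Srsf4 an SR protein. Rbm15 encodes an RNA-binding protein of the m6A methylation machinery, and Zcchc3 a zinc finger protein that binds nucleic acids.

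Exons of 1497 pairs of coding genes overlap on opposite strands, and 121 of them (8.08%) had uniquely matching reads on both strands of the overlap. Ranked by reads on the weaker strand, Kif4 and Pdzd11 came first with 222, with 417 on the other strand. The next were Ppib and Snx22 (34 on the weaker strand), Gtf3a and Mtif3 (25), Myo1h and Kctd10 (25), Bud31 and Ptcd1 (24) and Tfip11 and Srrd (23), all tail to tail. Of the 496 head-to-head pairs 19 had reads on both strands (3.83%), and the next after Kif4 and Pdzd11, Trmt112 and Prdx5, had 9 reads on the weaker strand. The share with both strands was 11.8% of 834 tail-to-tail pairs. The ranking is a description of these libraries, in which the pair was known beforehand to be a source of siRNAs.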

How the data were processed

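Single reads of 3 libraries with a quality per base, deposited by the authors untrimmed, were used, and the values given are counts of reads made here with Python 3.11.15, numpy 2.4.6, pandas 2.3.3 and scipy 1.17.1. No aligner, build or filter of the authors is named, being not given in the sources used here. Linker sequence at the 3' end was sought with up to 20% mismatches over at least 4 (26 nt reads) or 6 called bases (36 nt reads). Inserts of at least 18 nt without uncalled bases among the first 18 and not of low complexity were placed by perfect matches of their first 20 nt (the whole insert where shorter), sense or antisense, on 141767 transcripts (GENCODE M21, build GRCm38). Reads with several places were weighted by 1 over their number, and those with over 1000 were left out. No genome sequence was searched. Trimming, matching and sizing were tested on simulated reads with known places and lengths.

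The windows are the only groups, so no test was made. Shares have Wilson, levels exact Poisson and ratios conditional binomial intervals, and PCR copies are not independent molecules. The members, lists and rules were chosen with earlier results of these data known: the lists named above, the 5 genes nearest Pdzd11 in 3 shares, the 5 overlapping pairs with most reads on the weaker strand, and the 3 leading sequences of each strand with ties. Sizing on the exon took the length with the fewest differences and at least 2 fewer than without a linker. This sizing, and the inclusion of reads without a recognised linker, were chosen after seeing the data.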

Additional observations from a re-analysis of the deposited data

How the results depend on the processing

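No paired analysis was possible because each window had 1 library, and for the same reason none could be left out. Of 133 values recomputed for 19 results, 99 stayed within the counting interval (counts of genes or pairs within 1.5 times). No ratio between libraries changed direction. Some of the 99 could not move. Every member read has a single place, so counting every match in full changes no value and unique reads alone change no share. Leaving out reads without a found linker changes no level of the 19-24 and 24-30 nt libraries. The cause of the other shifts was not tested beyond the change of denominator or of reads that each setting makes. With unique reads alone the plus strand had 456 (19-24 nt) and 5035 RPM (19-30 nt), the minus strand 272 and 2603 RPM, and the ratio of 19-24 over 19-30 nt was 0.0953. Per usable read the plus strand had 138, 432 and (24-30 nt) 3.51 RPM, the minus strand 82.2 and 223, and the ratio was 0.336. Outside microRNA the plus strand had 1387 and 1974 RPM, the minus strand 826 and 1021, the ratio was 0.739, and that of 19-24 over 24-30 nt was 141. With distinct sequences the plus strand had 2042, 2996 and (24-30 nt) 118 RPM, the minus strand 1167 and 1766, the ratio was 0.674, that of 19-30 over 24-30 nt 40.5, 91.0% of sized sequences were 20-23 nt, and 39.6% started with U. With whole inserts matched, the plus strand of the 19-30 nt library had 1380 RPM, 99.7% of reads lay in the overlap and 96.3% were 20-23 nt. At 21 and 22 nt alone the length share was 68.3%. Pairs at an overlap of 20 nt numbered 23 with 20-23 nt reads and 153 weighted by reads. With at least 20 antisense reads, 34 of 399 genes (19-24 nt) and 123 of 528 genes (19-30 nt) lay 4-fold above the 24-30 nt library. With at least 10 these were 52 of 614 and 216 of 787, so that fewer genes were also tested at the higher limit. Leaving out reads without a found linker, an alternative chosen after seeing the data, gave 1558 and 912 RPM for the plus and minus strand of the 19-30 nt library. The 24-30 nt values rest on 5 reads, so each ratio over that library has a wide interval.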
